A study of Mus musculus with 30 samples.

Results

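The dual-specificity MAPK phosphatases are enzymes that switch off MAP kinases. Dusp1, Dusp2, Dusp4, Dusp5, Dusp6, Dusp7, Dusp10 and Dusp16 were followed here in dendritic cells grown from mouse bone marrow (BMDCs). They were taken as the rows of the count table whose Ensembl identifier maps to these symbols, which gave 8 of 43629 genes. All 8 were counted in each of the 30 libraries. The study asked whether the calcium channel subunit CACNB3 shapes the transcriptional response of BMDCs to extracellular ATP. Polyadenylated RNA of 10 cultures, 5 of each genotype (WT and Cacnb3-/-), was sequenced in 3 sets that the library names call ctrl, 0p5h and 24h, which makes 6 groups of 5 libraries. All cultures were grown with GM-CSF and were stimulated after 6 days, and ATP was given at 500 µM for 30 min with an early harvest or harvest after 24 h. The study places the early harvest 30 min after the pulse. Per the methods of the study, WT mice were C57BL/6J and Cacnb3-/- mice C57BL/6N, so that substrain and genotype cannot be told apart, and adults of both sexes were used. Values are given in the order of the culture numbers, which for WT is p974s846, p974s850, p974s855, then p974s856 and p974s864. For Cacnb3-/- it is p974s843, p974s851, p974s852, then p974s853 and p974s865.

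MAP kinases such as ERK, JNK and p38 are active when a threonine and a tyrosine in their activation loop both carry phosphate. The phosphatases of this family remove both phosphates. Several are encoded by immediate early genes, which the kinases themselves induce, so that the family is known as a negative feedback on MAPK signalling, and DUSP1 in particular is known as a brake on inflammatory output of macrophages and dendritic cells.

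The library names and the treatment field of the labels disagree for ctrl and 0p5h. In the treatment field, ctrl libraries carry 30 min of ATP and 0p5h libraries carry vehicle, while both place the libraries named 24h at 24 h after ATP. The sets are therefore called by their library names, and no change between ctrl and 0p5h is assigned here to ATP. Cacnb3 was counted in all 15 libraries labelled Cacnb3-/-, at 573 to 1331 CPM (counts scaled to a common library size) against 1035 to 2143 CPM in WT. Counts per gene do not separate exons, and which exons the allele lacks is not given in the sources used here, so this does not check the label. Of 8 dendritic cell markers, 8 were over 1 CPM on average in each group, with a sum of 13000 to 35570 CPM per library. Most of that sum came from the MHC class II genes Cd74, H2-Aa and H2-Ab1, which averaged 12680, 7422 and 3836 CPM. Each other dendritic cell marker averaged 75.05 to 197.4 CPM. Of 8 macrophage markers, 0 were under 1 CPM on average, and Csf1r averaged 512.5 CPM. Macrophage markers summed to 601.5 to 2304 CPM, granulocyte markers to 108 to 566 CPM and mast cell and basophil markers to 7.92 to 57.9 CPM. The sums therefore do not give the share of each cell type. Averaged over the 30 libraries, 6 of 6 T and NK cell and 5 of 5 B cell markers were under 1 CPM. Each library held 8237393 to 32164225 counts (median 19556920). In RNA from whole cultures, fewer cells of a type and less RNA per cell cannot be told apart. The labels do not say that cultures came from separate animals, so p-values measure the spread between these samples only.

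Per kilobase of exon, the family was carried by Dusp1 and Dusp5. Averaged over 30 libraries, the level per length was 189 RPKM for Dusp1 and 187 RPKM for Dusp5. Dusp16 followed at 16.02 RPKM, Dusp6 at 8.50 RPKM, Dusp2 at 5.04 RPKM, Dusp4 at 3.34 RPKM, Dusp10 at 1.49 RPKM and Dusp7 at 1.04 RPKM. Over libraries, Dusp1 ranged from 53.1 to 573 RPKM and Dusp5 from 91.5 to 362 RPKM, so these overlapped, while Dusp16 at 9.48 to 27.8 RPKM lay below both. From Dusp16 downward, each neighbouring pair in this order overlapped. Of the 2 MAP kinase phosphatases outside the group, Dusp8 had 0 to 13 counts and Dusp9 7 to 67 counts per library.

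The sum of the 8 levels differed between the sets. It averaged 318 ± 104 RPKM in ctrl, 727 ± 213 RPKM in 0p5h and 325 ± 74.3 RPKM in 24h libraries of WT BMDCs (SD, n = 5). In Cacnb3-/- BMDCs it averaged 246 ± 55.3, 563 ± 52.7 and 289 ± 61.0 RPKM (SD, n = 5). In both genotypes each 0p5h library lay above each ctrl and 24h library, at 425 to 978.5 RPKM against 178 to 393 RPKM in WT and at 514 to 641 RPKM against 175 to 366 RPKM in Cacnb3-/-. The make-up of the sum differed as well. Dusp1 held 37.6% of it in ctrl, 59.5% in 0p5h and 34.3% in 24h libraries of WT, and 30.1%, 51.9% and 31.3% in Cacnb3-/-. The 5 least abundant members held at most 10.6% together in any library.

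**Figure D1:**
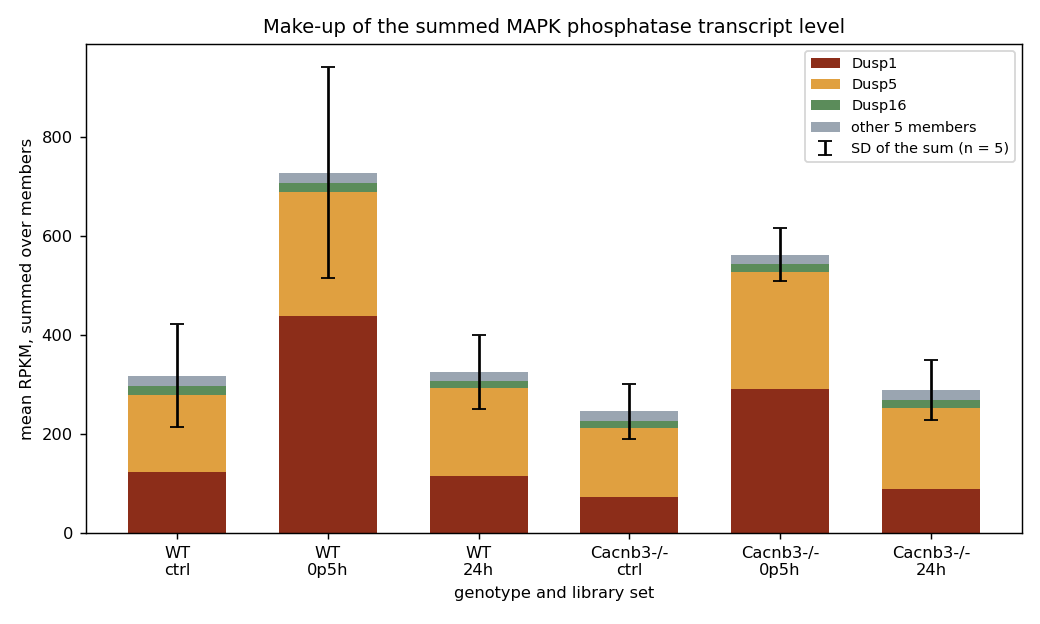
Mean RPKM summed over the 8 members (vertical axis, from 0) in each genotype and library set (horizontal axis), with the parts of Dusp1, Dusp5, Dusp16 and the other 5 members stacked, and error bars that give the SD of the sum over 5 cultures. The sum is highest in 0p5h (727 RPKM in WT and 563 RPKM in Cacnb3-/-), where the Dusp1 part is the largest.

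Promoter sequences were matched by symbol to RefSeq windows of 300 bases on GRCm38.p6, which run from 250 bases before to 50 bases after the start that RefSeq gives for a gene. An entry was found for 7 of 8 members, and Dusp4 is named only. The window of Dusp10, chr1:184034131-184034430, lies inside the gene as counted here, which begins at 184013302. Windows were searched on both strands for 6 motifs. These were the CRE (TGACGTCA), its core TGACG, which a CRE holds on each strand, the AP-1 element (TGANTCA), the CArG box, the GC box (GGGCGG) and the TATA box (TATAAA). The windows of Dusp1, Dusp5 and Dusp2 are shown because Dusp2 differed from Dusp1 and Dusp5 in direction between the sets and because the motifs differ between the 3. Capitals mark the CRE and its core in Dusp1, a pair of adjoining CArG boxes and a CRE core in Dusp5, and a CRE core in Dusp2:
Dusp1, chr17:26508423-26508722, reverse strand: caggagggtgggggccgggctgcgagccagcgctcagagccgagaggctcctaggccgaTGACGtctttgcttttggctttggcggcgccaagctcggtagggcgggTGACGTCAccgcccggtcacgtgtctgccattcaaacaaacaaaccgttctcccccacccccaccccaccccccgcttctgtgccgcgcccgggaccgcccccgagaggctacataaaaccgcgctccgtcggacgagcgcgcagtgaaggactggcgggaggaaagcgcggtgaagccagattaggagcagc
Dusp5, chr19:53528895-53529194, forward strand: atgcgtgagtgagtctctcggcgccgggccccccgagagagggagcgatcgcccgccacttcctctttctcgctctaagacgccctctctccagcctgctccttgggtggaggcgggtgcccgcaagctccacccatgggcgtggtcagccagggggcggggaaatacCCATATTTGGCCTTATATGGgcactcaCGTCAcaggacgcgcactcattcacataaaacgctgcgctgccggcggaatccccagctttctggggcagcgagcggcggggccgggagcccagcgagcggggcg
Dusp2, chr2:127335909-127336208, forward strand: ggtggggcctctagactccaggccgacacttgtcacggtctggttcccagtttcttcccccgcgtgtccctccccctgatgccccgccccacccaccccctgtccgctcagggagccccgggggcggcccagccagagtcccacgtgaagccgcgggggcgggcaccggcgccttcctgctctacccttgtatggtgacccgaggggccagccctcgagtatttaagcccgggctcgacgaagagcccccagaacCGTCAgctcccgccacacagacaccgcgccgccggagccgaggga
A CRE was present in the window of 1 of 7 members, Dusp1, at position -143 (the start is 1), against 1.79% of all 32851 windows. The core TGACG was found in 4 of 7, namely Dusp1, Dusp2, Dusp5 and Dusp16, against 20.8% of windows. Dusp1 held it 3 times, of which 2 lie in the CRE and 1 at -191. The CArG box was found in Dusp5 alone, at -82 and -72, against 1.63% of windows. A GC box stood in 6 of 7 members, Dusp6 being the exception, against 35.7% of windows. The AP-1 element and the TATA box were found in 0 of 7, against 7.81% and 13.6% of windows. A match describes letters in this window only.

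Changes between sets were tested within each genotype by edgeR's quasi-likelihood test with Benjamini-Hochberg adjustment over all genes tested. Genes that changed at least 2-fold with an adjusted p below 0.05 were called, and those that met the adjusted p alone are said to have passed. All 8 members passed the filter on low counts in each of the 12 comparisons made. Libraries of a culture deviated together, so a fit that takes culture numbers as a replicate block was also run. From ctrl to 0p5h, 0 of 8 members were called in WT, where 0.176% of 13085 genes were called. There, the unadjusted p of 3 members lay under 0.05, as did that of 594 of the 13085 genes. By DESeq2 2 members were called (0.202% of 25277 genes), Dusp1 and Dusp4. In Cacnb3-/-, 1 member, Dusp1, was called higher in 0p5h than in ctrl, as were 0.282% of 12750 genes (0.29% in both directions). With the replicate block, 4 members passed as higher in WT (3.29% of all genes) and 1 as lower (2.67%), and 3 passed as higher in Cacnb3-/- (1.62%) and 1 as lower (0.729%). The members that passed as higher were Dusp1, Dusp4 and Dusp5 in both genotypes and Dusp10 in WT, and the member that passed as lower was Dusp2 in both.

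Between 0p5h and 24h more members were called. Dusp1 and Dusp4 were called lower in both genotypes, 2 of 8 members, where 0.592% of 12830 genes were called lower in WT (0.639% in both directions) and 0.495% of 12730 genes in Cacnb3-/- (0.66% in both directions). Dusp2 was called higher in Cacnb3-/-, 1 of 8 members, as were 0.165% of genes. With the replicate block, 5 members passed as lower in WT (Dusp1, Dusp4, Dusp5, Dusp6 and Dusp10, against 6.78% of genes) and 2 as higher (Dusp2 and Dusp7, against 4.52%). In Cacnb3-/- 3 passed as lower (Dusp1, Dusp4 and Dusp5, against 14.4% of genes) and 1 as higher (Dusp2, against 14.2%). Both steps share the 0p5h libraries, so they are not independent of each other.

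**Figure D2:**
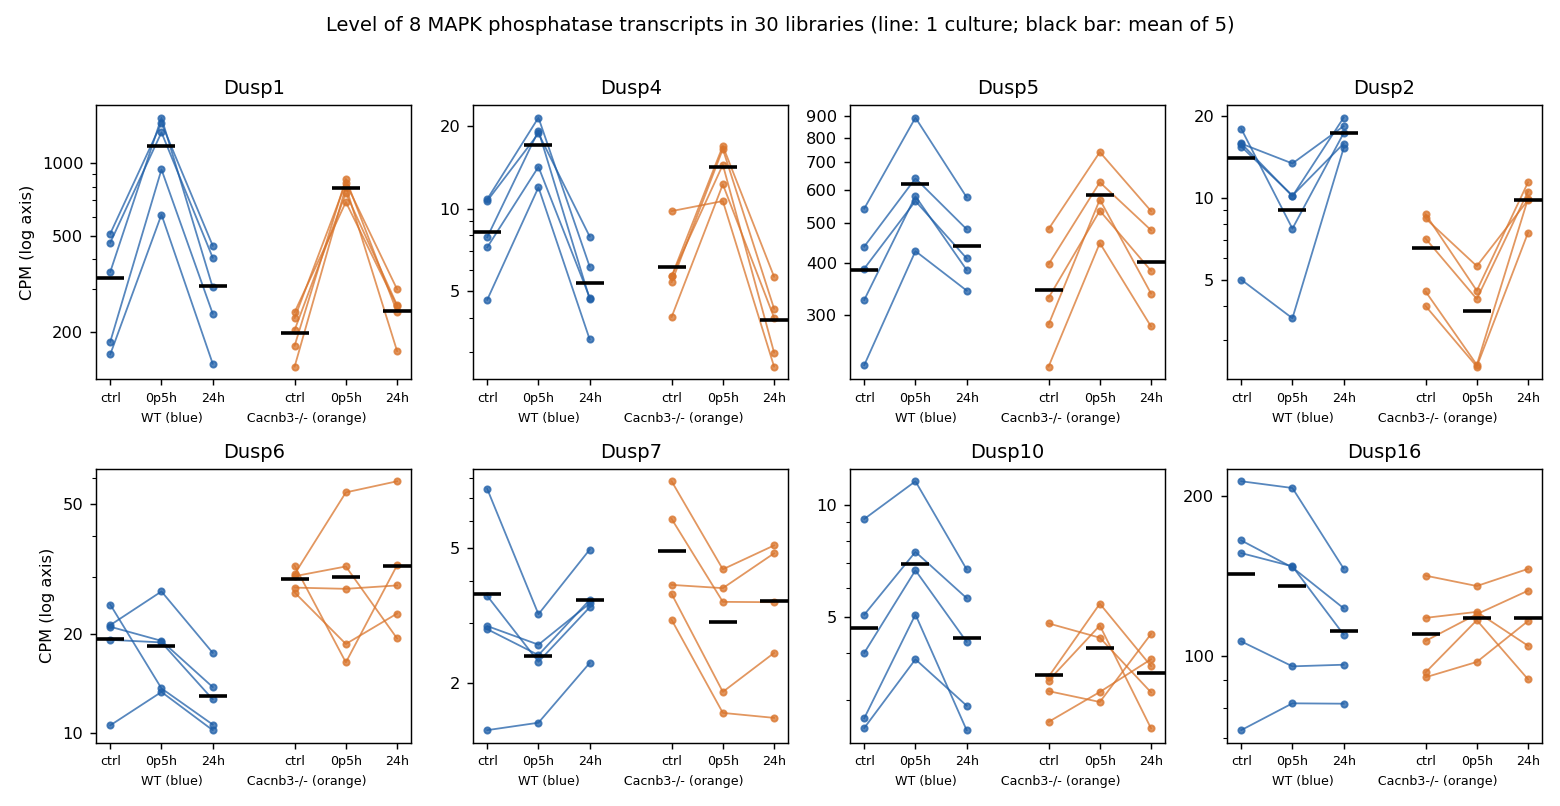
Level of each member in CPM (vertical axis, log scale, 1 panel a gene) in ctrl, 0p5h and 24h libraries (horizontal axis), with WT in blue and Cacnb3-/- in orange; a line joins the 3 libraries of 1 culture and a black bar gives the mean of 5. Dusp1 and Dusp4 peak in 0p5h in each of the 10 cultures, while Dusp2 is lowest there in each of them.

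Dusp1 encodes MKP-1, a nuclear phosphatase that acts mainly on p38 and JNK and also on ERK. The gene (ENSMUSG00000024190) lies at chr17:26505590-26508519 on the reverse strand of GRCm38. In WT BMDCs, Dusp1 was at 467, 181, 509.7, 354 and 161 CPM in ctrl. In 0p5h it was at 1342, 941, 1468, 1545 and 612 CPM, and in 24h at 405, 237, 455, 305 and 147 CPM. Every WT 0p5h library lay above every ctrl and 24h library, and culture p974s864 was the lowest of each set. In Cacnb3-/- BMDCs, the levels were 241, 175, 203, 228 and 143 CPM in ctrl, 689.6, 860.4, 751, 829 and 799 CPM in 0p5h and 255, 241, 257, 299.5 and 166 CPM in 24h. Again the 0p5h libraries did not overlap with either other set. Within cultures the ratio of 0p5h to ctrl was 2.87 to 5.19 in WT and 2.87 to 5.58 in Cacnb3-/-, so Dusp1 was higher in 0p5h in 10 of 10 cultures.

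The log2 fold change of Dusp1 from ctrl to 0p5h was 1.98 ± 0.16 in Cacnb3-/- (SE, n = 5 per set, adjusted p = 0.000367 by edgeR's quasi-likelihood test with Benjamini-Hochberg adjustment), and its adjusted p stayed between 4.03e-61 and 0.00838 over 14 alternative settings. In WT it was 1.83 ± 0.37 with an adjusted p of 0.0945 from the same test, while the replicate block gave 1.90 ± 0.11 and an adjusted p of 7.23e-06. Over 14 alternatives, the adjusted p in WT ranged from 2.48e-29 to 0.608, and 5 of them lay under 0.05. In 24h against 0p5h, Dusp1 fell by 1.93 ± 0.33 in WT on the log2 scale (adjusted p = 0.0158) and by 1.68 ± 0.16 in Cacnb3-/- (adjusted p = 0.000448), both by edgeR with Benjamini-Hochberg adjustment. With each culture left out in turn, the WT call held in 1 of 5 fits, while the log2 fold change stayed between -2.01 and -1.81. The adjusted p in WT was 0.078 without p974s846, 0.101 without p974s850, 0.0513 without p974s855 and 0.124 without p974s856, in a range of 6.8e-71 to 0.124 over 14 alternatives. With the replicate block it was 2.22e-05, and 1.92e-05 to 0.000434 with each culture left out.

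Dusp4 encodes MKP-2, a close relative of MKP-1 that is also nuclear and inducible. The gene (ENSMUSG00000031530) lies at chr8:34807297-34819894 on the forward strand and had 20 to 657 counts per library. In WT, Dusp4 was at 10.7, 4.655, 10.8, 7.87 and 7.23 CPM in ctrl, 18.8, 11.95, 21.4, 19.2 and 14.2 CPM in 0p5h and 7.91, 3.34, 6.15, 4.69 and 4.74 CPM in 24h. In Cacnb3-/-, it was at 9.79, 4.03, 5.67, 5.39 and 5.665 CPM in ctrl, 10.65, 12.25, 14.4, 16.5 and 16.9 CPM in 0p5h and 2.66, 4.01, 2.99, 4.32 and 5.65 CPM in 24h. The 0p5h libraries were above all others of their genotype, but in Cacnb3-/- culture p974s843 the ratio of 0p5h to ctrl was 1.09, against a median of 2.98. From ctrl to 0p5h, the log2 fold change was 1.06 ± 0.24 in WT and 1.19 ± 0.23 in Cacnb3-/- (SE, n = 5 per set, adjusted p = 0.155 and 0.0604 by edgeR's quasi-likelihood test with Benjamini-Hochberg adjustment). The replicate block gave adjusted p-values of 3.49e-05 and 0.0147, so Dusp4 was called in both genotypes. The WT adjusted p with the block stayed at 6.31e-05 to 0.000436 with each culture left out. In Cacnb3-/- it ranged from 6.53e-08 to 0.109, and was under 0.05 with p974s843 left out and with no other culture left out, which was also the case without the block (0.0101 without p974s843, in a range of 1.39e-07 to 0.462 over 14 alternatives). Dusp4 then fell by 1.66 ± 0.24 in WT and by 1.81 ± 0.22 in Cacnb3-/- from 0p5h to 24h, on the log2 scale (adjusted p = 0.00538 and 0.00256 by the same test). In WT the adjusted p was 0.0632 without p974s856, the highest of 14 alternatives that began at 5.36e-24.

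Dusp5 encodes a nuclear phosphatase selective for ERK, and with Dusp1 it was the most abundant member per length. The gene (ENSMUSG00000034765) lies at chr19:53529109-53542431 on the forward strand. In WT, Dusp5 was at 439, 327, 388, 541 and 228 CPM in ctrl, 639, 579, 564, 894 and 428 CPM in 0p5h and 483, 386, 411, 576 and 344 CPM in 24h. In Cacnb3-/-, it was at 331, 285, 398, 483.5 and 226 CPM in ctrl, 535, 569, 626, 739 and 447 CPM in 0p5h and 384, 338.5, 480.3, 534 and 282 CPM in 24h. The sets overlapped in both genotypes, and the WT cultures alone spanned 228 to 541 CPM in ctrl. Within cultures, Dusp5 was higher in 0p5h than in ctrl in 10 of 10, by 1.45 to 1.88 times in WT and 1.53 to 1.99 times in Cacnb3-/-, and lower in 24h than in 0p5h in 10 of 10. Without the replicate block the log2 fold change from ctrl to 0p5h of Dusp5 did not pass (0.70 ± 0.24 in WT and 0.74 ± 0.21 in Cacnb3-/-, adjusted p = 0.633 and 0.473 by edgeR with Benjamini-Hochberg adjustment). With it, Dusp5 rose by 0.72 ± 0.06 in WT and 0.77 ± 0.08 in Cacnb3-/- (adjusted p = 4.57e-05 and 0.000672 by edgeR), below the 2-fold limit, and passed with each culture left out. The change to 24h was -0.49 ± 0.20 in WT and -0.52 ± 0.20 in Cacnb3-/- (adjusted p = 0.36 and 0.233 by edgeR). With the block, Dusp5 fell by 0.48 ± 0.07 in WT and by 0.54 ± 0.09 in Cacnb3-/- (adjusted p = 0.00464 and 0.00199 by edgeR).

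Dusp2 encodes PAC-1, a nuclear phosphatase known from activated immune cells, and it differed from the members above in direction. The gene (ENSMUSG00000027368) lies at chr2:127336159-127338376 on the forward strand and had 38 to 464 counts per library. In WT, Dusp2 was at 15.9, 18, 15.5, 15.9 and 5.002 CPM in ctrl, 13.4, 7.71, 10.2, 10.15 and 3.605 CPM in 0p5h and 18.4, 17.3, 15.9, 19.8 and 15.3 CPM in 24h. In Cacnb3-/-, it was at 3.999, 8.71, 7.08, 8.405 and 4.52 CPM in ctrl, 2.39, 4.55, 4.24, 5.61 and 2.43 CPM in 0p5h and 7.45, 11.4, 10.6, 9.82 and 9.94 CPM in 24h. Dusp2 was lower in 0p5h than in ctrl in 10 of 10 cultures and higher in 24h than in 0p5h in 10 of 10, and the 24h and 0p5h libraries of a genotype did not overlap. From ctrl to 0p5h, the log2 fold change was -0.63 ± 0.37 in WT and -0.77 ± 0.31 in Cacnb3-/- (SE, n = 5 per set, adjusted p = 0.9997 and 0.9999 by edgeR's quasi-likelihood test with Benjamini-Hochberg adjustment). With the replicate block, Dusp2 fell by 0.63 ± 0.12 in WT and by 0.79 ± 0.12 in Cacnb3-/- (adjusted p = 0.0116 and 0.0062). This was lost without WT culture p974s856 (adjusted p = 0.0519, range 0.00602 to 0.0519 over 5) and without Cacnb3-/- culture p974s851 or p974s865 (0.0617 and 0.0559, range 0.000691 to 0.0617 over 5).

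From 0p5h to 24h, Dusp2 rose by 1.37 ± 0.25 on the log2 scale in Cacnb3-/- (adjusted p = 0.0279 by edgeR with Benjamini-Hochberg adjustment). This call was lost when any 1 of the 5 cultures was left out (0.0578 to 0.209, in a range of 5.45e-10 to 0.209 over 14 alternatives), and its adjusted p was 0.0511 with the sequencing lane as a covariate. The replicate block gave 1.41 ± 0.17 with an adjusted p of 0.000322, and 2.76e-05 to 0.00392 with each culture left out. In WT, the change in Dusp2 was 0.95 ± 0.27 with an adjusted p of 0.161 by edgeR, and 1.02 ± 0.20 with an adjusted p of 0.0122 with the block, where Dusp2 was thus called. With the block and each culture left out, its adjusted p by edgeR was 0.0173 to 0.0355 and its log2 fold change 0.796 to 1.17. Dusp2 was not called without p974s850 or p974s864, nor with the block and the GC trend removed. The summed dendritic cell markers were at 17080 to 29710 CPM in 24h and 23690 to 35130 CPM in 0p5h libraries of WT, and at 13000 to 23520 and 17810 to 33500 CPM in those of Cacnb3-/-. The share of mitochondrial counts was higher in 24h than in 0p5h in 4 of 5 WT cultures, by up to 1.59 times, and in 5 of 5 Cacnb3-/- cultures, by 1.25 to 2.65 times. The part of either in the differences between 24h and 0p5h, those of the other members included, was not tested.

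Dusp6 and Dusp7 encode cytoplasmic phosphatases selective for ERK (MKP-3 and MKP-X), and neither was called between sets. Dusp6 (ENSMUSG00000019960, chr10:99263231-99267488, forward strand) had 225 to 861 counts per library. In WT it was at 19.2, 21.1, 10.55, 21.3 and 24.7 CPM in ctrl, 18.9, 19.1, 13.3, 27.04 and 13.7 CPM in 0p5h and 12.7, 13.8, 10.2, 17.6 and 10.6 CPM in 24h. In Cacnb3-/- it was at 30.6, 27.8, 26.8, 32.4 and 30.1 CPM in ctrl, 54.2, 27.5, 18.7, 16.4 and 32.2 CPM in 0p5h and 58.7, 28.2, 23.15, 32.5 and 19.4 CPM in 24h. Culture p974s843 held the highest Dusp6 of its genotype in 0p5h and in 24h. Between ctrl and 0p5h, Dusp6 was higher in 2 and lower in 3 cultures of each genotype. In 24h it was lower than in 0p5h in 5 of 5 WT cultures, at a log2 fold change of -0.50 ± 0.22 (SE, n = 5 per set, adjusted p = 0.403 by edgeR), and with the replicate block Dusp6 fell by 0.48 ± 0.08 (adjusted p = 0.0067 by edgeR, range 0.00827 to 0.041 with each culture left out). In Cacnb3-/- it was higher in 4 of 5 cultures, at 0.13 ± 0.36 (adjusted p = 0.856 by edgeR).

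Dusp7 (ENSMUSG00000053716, chr9:106368632-106375724, forward strand) was the least abundant member per length, at 18 to 185 counts per library. Its mean level in ctrl, 0p5h and 24h was 3.66 ± 2.24, 2.41 ± 0.60 and 3.502 ± 0.94 CPM in WT and 4.90 ± 1.99, 3.02 ± 1.19 and 3.48 ± 1.496 CPM in Cacnb3-/- (SD, n = 5). The sets overlapped in both genotypes. Dusp7 was lower in 0p5h than in ctrl in 4 of 5 WT and 5 of 5 Cacnb3-/- cultures, but the log2 fold changes of -0.60 ± 0.38 and -0.71 ± 0.33 did not pass (SE, n = 5 per set, adjusted p = 0.9997 and 0.9999 by edgeR, and 0.135 and 0.059 with the replicate block). In 24h it was higher than in 0p5h in 5 of 5 WT cultures. With the block, Dusp7 rose by 0.54 ± 0.13 there (adjusted p = 0.0269 by edgeR), which held at 0.05 with 1 of the 5 cultures left out, p974s856, and not with any of the other 4 (range 0.0365 to 0.0992). Without the block, the adjusted p was 0.448 by edgeR. In Cacnb3-/- the change of Dusp7 was 0.23 ± 0.36 (adjusted p = 0.736 by edgeR).

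Dusp10 and Dusp16 encode MKP-5 and MKP-7, which act on JNK and p38. Dusp10 (ENSMUSG00000039384, chr1:184013302-184075636, forward strand) had 29 to 355 counts per library. In WT it was at 5.08, 2.52, 9.17, 4.01 and 2.68 CPM in ctrl, 7.49, 3.855, 11.6, 6.68 and 5.08 CPM in 0p5h and 5.63, 2.895, 6.72, 4.295 and 2.49 CPM in 24h. In 5 of 5 WT cultures, 0p5h was the highest of the 3 libraries, though the sets overlapped. With the replicate block, Dusp10 rose by 0.60 ± 0.10 from ctrl to 0p5h in WT and fell by 0.66 ± 0.13 from 0p5h to 24h (adjusted p = 0.00498 and 0.0123 by edgeR). The latter was at 0.0635 without p974s855 (range 0.0157 to 0.0635 with each culture left out). Without the block neither passed (adjusted p = 0.9997 and 0.519 by edgeR). In Cacnb3-/- BMDCs, Dusp10 averaged 3.49 ± 0.81, 4.14 ± 1.06 and 3.54 ± 0.75 CPM in ctrl, 0p5h and 24h (SD, n = 5), and 3 of 5 cultures were higher in 0p5h than in ctrl. Its log2 fold change was 0.23 ± 0.23 from ctrl to 0p5h and -0.21 ± 0.24 from 0p5h to 24h (SE, adjusted p = 0.9999 and 0.628 by edgeR).

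Dusp16 (ENSMUSG00000030203, chr6:134715473-134792625, reverse strand) had 997 to 6336 counts per library. It averaged 142.5 ± 54.3, 135.5 ± 49.6 and 111 ± 24.8 CPM in ctrl, 0p5h and 24h of WT, and 110.1 ± 20.6, 118 ± 13.6 and 118 ± 21.9 CPM in those of Cacnb3-/- (SD, n = 5). Within cultures the ratio of 0p5h to ctrl of Dusp16 was 0.89 to 1.12 in WT and 0.956 to 1.25 in Cacnb3-/-, and that of 24h to 0p5h 0.706 to 1.01 and 0.775 to 1.19. The sets overlapped, and Dusp16 passed in none of the comparisons of sets with or without the replicate block in edgeR.

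**Figure D3:**
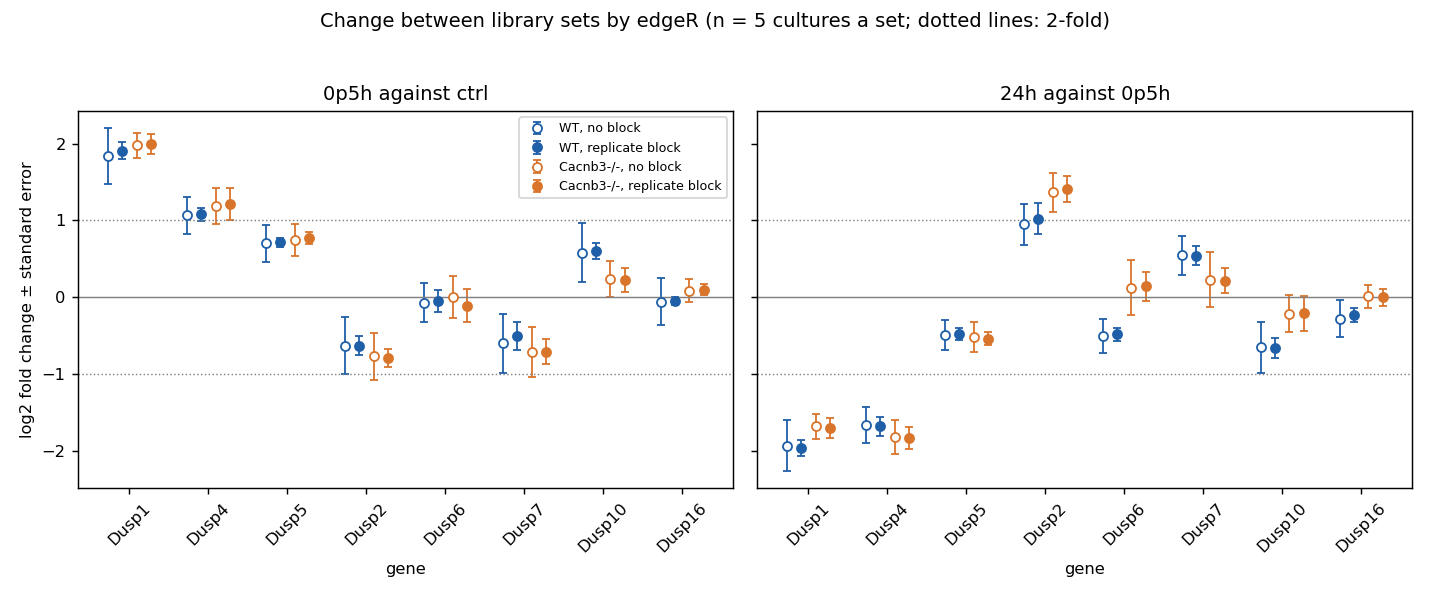
Log2 fold change (vertical axis) of each member (horizontal axis) from ctrl to 0p5h (left) and from 0p5h to 24h (right) by edgeR in WT (blue) and Cacnb3-/- (orange), without (open) and with (filled) the replicate block, with standard errors and dotted lines at 2-fold. Dusp1, Dusp4 and Dusp5 lie above 0 on the left and below 0 on the right in both genotypes, and Dusp2 does the opposite.

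Between ctrl and 24h, 0 of 8 members were called in WT, where 0.0152% of 13176 genes were called by edgeR and 0.117% of 25622 by DESeq2, and 0 of 8 in Cacnb3-/-, where 0% of 12452 genes were called by edgeR and 0.191% of 25147 by DESeq2. In WT the unadjusted p of 2 members lay under 0.05, as did that of 1106 of the 13176 genes. It was also under 0.05 for 2 members in Cacnb3-/-, where the share of all genes is not given here. By DESeq2, 0 members were called in either genotype. Dusp1 was at 0.863 to 1.31 times its ctrl level in 24h of WT and at 1.06 to 1.38 times in Cacnb3-/-, with log2 fold changes of -0.10 ± 0.37 and 0.30 ± 0.18 (SE, n = 5 per set, adjusted p = 0.96 and 0.462 by edgeR with Benjamini-Hochberg adjustment). Dusp5 was higher in 24h than in ctrl in 10 of 10 cultures, by 1.06 to 1.51 times in WT and 1.10 to 1.25 times in Cacnb3-/-, and did not pass (adjusted p = 0.828 and 0.613 by edgeR). Dusp4 was lower in 24h than in ctrl in 10 of 10 cultures, at a log2 fold change of -0.61 ± 0.27 in WT and -0.62 ± 0.27 in Cacnb3-/- (adjusted p = 0.588 and 0.444 by edgeR). In WT, Dusp4 passed with the replicate block as 1 of 8 members lower (3.64% of genes), with a fall of 0.61 ± 0.12 on the log2 scale and an adjusted p of 0.0176 by edgeR. Its adjusted p was 0.0649 without p974s846 and 0.0829 without p974s855 (range 0.0309 to 0.0829 with each culture left out). Dusp2 was higher in 24h than in ctrl in 4 of 5 WT and 5 of 5 Cacnb3-/- cultures, at 0.31 ± 0.27 and 0.60 ± 0.24 (adjusted p = 0.773 and 0.444 by edgeR). In Cacnb3-/-, where the numbers were not taken to pair these libraries, the block let 1 member pass as higher, Dusp2 (4.34% of genes), and 0 as lower (4.2%). These comparisons share their libraries with those above.

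Between genotypes, 0 of 8 members were called by edgeR in each of the 3 sets, as were 0% of 13022 genes in ctrl, 0% of 12806 in 0p5h and 0% of 12706 in 24h. At an unadjusted p under 0.05 there were 3 members in ctrl, 4 in 0p5h and 2 in 24h. The share of all genes at that threshold is not given here, so these counts cannot be read as an excess among members. DESeq2 called 0 members in ctrl, 1 in 0p5h and 1 in 24h, where it called 0.584% of 24992, 0.326% of 25483 and 2.35% of 25800 genes. The members concerned were Dusp2 in 0p5h and Dusp6 in 24h. The share of mitochondrial counts reached higher values in libraries labelled Cacnb3-/- in all 3 sets, at 2.61% to 10.4% against 1.07% to 4.49% in WT in ctrl, 2.16% to 10.5% against 1.13% to 4.02% in 0p5h and 3.21% to 16.5% against 0.707% to 5.61% in 24h. Summed dendritic cell markers in 24h were at 13000 to 23520 CPM against 17080 to 29710 CPM. Their part in the differences below was not tested.

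Dusp6 was higher in the libraries labelled Cacnb3-/-. In ctrl it was at 26.8 to 32.4 CPM against 10.55 to 24.7 CPM in WT and in 24h at 19.4 to 58.7 CPM against 10.2 to 17.6 CPM, so that the genotypes did not overlap in either set. In 0p5h, Dusp6 was at 16.4 to 54.2 CPM against 13.3 to 27.04 CPM and the genotypes overlapped. The share of all genes without overlap was not counted, for this or any other comparison, so a lack of overlap describes the member only. The log2 fold change of Dusp6 from WT to Cacnb3-/- was 0.63 ± 0.19 in ctrl, 0.71 ± 0.31 in 0p5h and 1.33 ± 0.28 in 24h (SE, n = 5 per genotype, adjusted p = 0.245, 0.295 and 0.0515 by edgeR with Benjamini-Hochberg adjustment). In 24h, the adjusted p of Dusp6 ranged from 0.00245 to 0.131 over 16 alternatives, of which 5 were under 0.05. It was 0.00245 in DESeq2, 0.00499 with all 30 libraries in 1 fit, 0.0377 without WT culture p974s864 and 0.008 without Cacnb3-/- culture p974s865. Without Cacnb3-/- culture p974s843, the highest, the log2 fold change was 1.01 and the adjusted p 0.116 in edgeR. The 24h library of that culture held the fewest counts of all libraries (8237393) and the highest share of mitochondrial counts (16.5%). The part of either in its Dusp6 level was not tested. Within the 3 sequencing lanes named in the column headers, the difference of Dusp6 in 24h was 1.22, 0.38 and 1.79 on the log2 CPM scale, with 1, 1 and 3 Cacnb3-/- against 2, 2 and 1 WT libraries.

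Dusp2 was lower in the libraries labelled Cacnb3-/-, at 7.45 to 11.4 CPM against 15.3 to 19.8 CPM in 24h, where the genotypes did not overlap. In ctrl and 0p5h they overlapped, since WT culture p974s864 lay at 5.002 and 3.605 CPM. The log2 fold change of Dusp2 was -1.09 ± 0.33 in ctrl, -1.21 ± 0.34 in 0p5h and -0.80 ± 0.15 in 24h (SE, n = 5 per genotype, adjusted p = 0.245, 0.251 and 0.0515 by edgeR with Benjamini-Hochberg adjustment). In ctrl it was -1.30 with an adjusted p of 0.0195 without p974s864, the lowest of 16 alternatives that reached 0.535. In 0p5h, DESeq2 gave 0.0474, the lowest of 16 that reached 0.545. In 24h the adjusted p of Dusp2 was 0.000592 in DESeq2, 0.0447 with all 30 libraries, 0.0377 without p974s864 and 0.00824 without Cacnb3-/- culture p974s865, and 0.217 at a log2 fold change of -0.30 after removal of the GC trend of each library. Within the 3 lanes the difference of Dusp2 in 24h was -0.51, -0.94 and -0.79 on the log2 CPM scale.

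The other members overlapped between the genotypes in each set. Dusp1 averaged 334.5 ± 160 against 198 ± 39.6 CPM in ctrl, 1182 ± 394 against 786 ± 67.2 CPM in 0p5h and 309.9 ± 124 against 244 ± 48.7 CPM in 24h (WT against Cacnb3-/-, SD, n = 5). Its log2 fold change was -0.73 ± 0.31, -0.57 ± 0.23 and -0.33 ± 0.27 (adjusted p = 0.279, 0.271 and 0.373 by edgeR). WT cultures differed more from each other in Dusp1 than Cacnb3-/- cultures did, at 612 to 1545 CPM against 689.6 to 860.4 CPM in 0p5h. Dusp10 was at -0.41, -0.74 and -0.31 and Dusp4 at -0.40, -0.26 and -0.42, and none of these passed in any of 16 alternatives. With the GC trend removed, Dusp1 in 24h was at -0.02 and Dusp4 at -0.08. Dusp5 was at -0.13, -0.07 and -0.11, and its sign turned to 0.02, 0.04 and 0.35 with the GC trend removed.

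**Figure D4:**
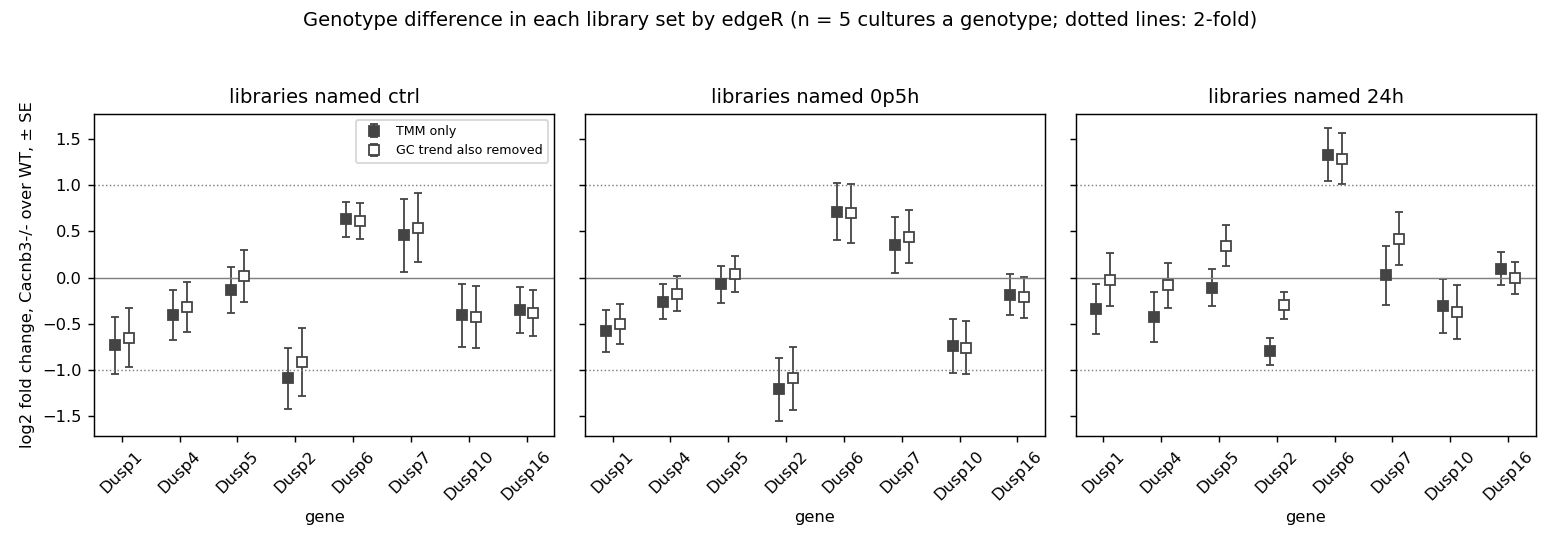
Log2 fold change from WT to Cacnb3-/- (vertical axis) of each member (horizontal axis) in ctrl, 0p5h and 24h libraries by edgeR, with TMM normalization alone (filled) and with each library's GC trend also removed (open), with standard errors and dotted lines at 2-fold. Dusp6 lies above 0 and Dusp2 below 0 in each set, at 1.33 and -0.80 in 24h, and with the GC trend removed Dusp2 is at -0.30 there.

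Whether the genotypes differed in the change between sets was tested as an interaction. 0 of 8 members were called for the change from ctrl to 0p5h, from 0p5h to 24h and from ctrl to 24h, as were 0% of 13465, 0% of 13424 and 0% of 13536 genes in edgeR and 0% of 27398, 0% of 28006 and 0% of 27713 in DESeq2. No member had an unadjusted p under 0.05 in either tool. In the fit with the replicate block, 0 members were called for any of these changes. From ctrl to 24h, where the Cacnb3-/- numbers were not taken to pair libraries, 3 members had an unadjusted p under 0.05 (0.118% of genes were called). The shares of all genes at that unadjusted p are not given here. For the changes from ctrl to 0p5h and from 0p5h to 24h, 0 and 1 members had such a p (0% and 0.00745% of genes were called). The latter was Dusp6, whose change from 0p5h to 24h differed by 0.61 ± 0.23 with an adjusted p of 0.121 by edgeR. Its adjusted p was 0.0155 without Cacnb3-/- culture p974s865, where 11.4% of genes passed in that direction, in a range of 0.0155 to 0.279 over 10 cultures left out in turn. From ctrl to 0p5h the change in Cacnb3-/- exceeded that in WT by 0.15 ± 0.40 for Dusp1, 0.14 ± 0.34 for Dusp4 and 0.06 ± 0.33 for Dusp5 on the log2 scale (SE, adjusted p = 1 each by edgeR). From 0p5h to 24h the difference was 0.25 ± 0.37 for Dusp1, 0.41 ± 0.38 for Dusp2 and 0.62 ± 0.45 for Dusp6 (adjusted p = 0.842, 0.74 and 0.694 by edgeR). From ctrl to 24h it was 0.41 ± 0.43, 0.30 ± 0.37 and 0.70 ± 0.35 (adjusted p = 0.8, 0.832 and 0.753 by edgeR). The standard errors of 0.33 to 0.45 limit the differences that these tests could detect.

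Among the other genes of the pathway, those called between sets by edgeR without the replicate block were MAPK-responsive transcripts. Of 14 such transcripts, 12 were tested. From ctrl to 0p5h, 3 were called higher in WT (0.176% of all genes) and 4 in Cacnb3-/- (0.282%). The median log2 fold change of the 12 was 0.87 and 0.99, against 0.01 and -0.01 over all genes. This list and those of the next paragraph were chosen with earlier results of these data known. Their counts and medians beside those of all genes therefore describe the lists and are no test of them. Fos and Junb, subunits of AP-1, rose by 3.24 and 1.37 in WT and by 2.86 and 1.57 in Cacnb3-/-, and Fosb, another, by 5.73 and 5.18 (adjusted p = 0.000367 to 0.0225 by edgeR with Benjamini-Hochberg adjustment). From 0p5h to 24h, 5 were called lower in WT (0.592% of all genes) and 4 in Cacnb3-/- (0.495%), with medians of -1.03 and -1.44 over the 12. Fos fell by 3.27 in WT and Junb fell by 1.42, and in Cacnb3-/- Fos fell by 2.79 and Junb fell by 1.75. With the replicate block, 9 in WT and 8 in Cacnb3-/- passed as higher from ctrl to 0p5h (3.29% and 1.62% of all genes). From 0p5h to 24h, 9 passed as lower in each (6.78% of all genes in WT and 14.4% in Cacnb3-/-). The list for the 8 members themselves had medians of 0.26 and 0.16 from ctrl to 0p5h and -0.50 and -0.10 from 0p5h to 24h.

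Of 13 MAP kinases 8 were tested, of 7 MAP kinase kinases 7, of 13 RAF and MAP3K kinases 13, of 10 atypical dual-specificity phosphatases 9 (8 between ctrl and 24h of Cacnb3-/-), and of 10 Sprouty, Spred and tyrosine phosphatase genes 7. None of these was called between sets by edgeR without the replicate block, while DESeq2 called 2 of 9 Sprouty, Spred and tyrosine phosphatase genes lower in 24h than in 0p5h of WT. Those that passed were Map3k8, the kinase TPL2 that activates the ERK pathway, which was lower in 24h than in 0p5h of WT by a log2 fold change of -0.83 (adjusted p = 0.00879 by edgeR), and Spry1, an inhibitor of receptor signalling to ERK, which rose by 0.82 from ctrl to 0p5h and fell by 0.91 from 0p5h to 24h in Cacnb3-/- (adjusted p = 0.035 and 0.0282 by edgeR). These are named although they were below the 2-fold limit, and were chosen after their values were seen. In all, 44 genes of these 5 lists were tested at each of the 5 comparisons of sets that follow. With the block, 4 passed as higher and 1 as lower from ctrl to 0p5h in WT (3.29% and 2.67% of all genes), and 3 as higher in Cacnb3-/- (1.62%). From 0p5h to 24h, 1 passed as higher and 5 as lower in WT (4.52% and 6.78% of all genes), and 2 as higher and 13 as lower in Cacnb3-/- (14.2% and 14.4%). Between ctrl and 24h of WT, 2 passed as lower (3.64%). Dusp14, an atypical phosphatase, was called with the block as higher in 0p5h than in ctrl of Cacnb3-/- (1.02 ± 0.16, adjusted p = 0.0072 by edgeR) and as lower in 24h than in 0p5h of WT (-1.10 ± 0.23, adjusted p = 0.0176). Spred2 and Spry2, inhibitors of signalling to ERK, were called lower in 24h than in 0p5h of WT (-1.40 ± 0.16 and -1.12 ± 0.17, adjusted p = 0.00114 and 0.00419 by edgeR), and Spred2 also lower in 24h than in ctrl of WT (-1.12 ± 0.16, adjusted p = 0.0072). Map2k6, the p38 kinase MKK6, was called lower in 24h than in 0p5h of Cacnb3-/- (-1.05 ± 0.23, adjusted p = 0.00717 by edgeR). Levels were low for Map2k6, at a mean of 2.29 CPM in 0p5h and 1.09 CPM in 24h of Cacnb3-/-. The same held for Spry2, at 2.25 and 1.03 CPM in those sets of WT, so both changes rest on few counts. Over all genes, the share called with the block was 0.58% higher in 0p5h than in ctrl of Cacnb3-/-, 1.36% and 1.57% lower in 24h than in 0p5h of WT and Cacnb3-/-, and 0.531% lower in 24h than in ctrl of WT.

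Likeness to other genes was measured as Pearson's r of log2 CPM over the 30 libraries among 13578 genes, which share depth, lane and the difference between sets. Dusp1 was most like Nfil3 (0.968), Areg (0.965) and Ccrl2 (0.953). Dusp4 was most like Pim3 (0.923), Ets2 (0.921) and Ccrl2 (0.912), and Dusp5 most like Gprc5a (0.879), Areg (0.841) and Zfp36 (0.839). For Dusp2 the highest were Rnd1 (0.88), Mab21l3 (0.859) and Cdkn2b (0.858). For Dusp6 they were Agpat5 (0.878), Necap1 (0.878) and F13a1 (0.874), and for Dusp7 Rgs14 (0.889), Arl11 (0.86) and Sh3bp2 (0.855). Dusp10 was most like Dck (0.846), Sqle (0.832) and Sp140 (0.822), and Dusp16 most like Sp140 (0.918), Stat5b (0.914) and Lrp8 (0.913). The 8 members were left out of the genes compared here. Between members, r was highest for Dusp1 with Dusp4 (0.844), Dusp1 with Dusp5 (0.81) and Dusp10 with Dusp16 (0.756). This order includes the difference between sets. After the mean of each group was removed, r was highest for Dusp1 with Dusp16 (0.872), Dusp10 with Dusp16 (0.825) and Dusp1 with Dusp10 (0.751). Dusp1 with Dusp5 was then at 0.677 and Dusp1 with Dusp4 at 0.526.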

How the data were processed

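RNA was sequenced from 30 libraries, in 6 groups of 5. The authors deposited raw read counts per gene, which per the file headers came from featureCounts 1.5.1 over the exons of GRCm38 gene models, Ensembl release 79. No strand option stands in the header, so reads from a gene and an antisense partner cannot be told apart. The submitters' processing notes name STAR 2.4, DESeq2 and mm10, while the methods of the study name GRCm39. Coordinates here are those of GRCm38. Symbols were matched by identifier for 38984 of 43629 genes. No column of a sample was left out (0 columns not used).

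Counts were normalized by TMM and tested in R 4.3.3 with edgeR 4.0.16 (filterByExpr, quasi-likelihood test, Benjamini-Hochberg adjustment over all genes tested), within the 10 libraries of the groups compared, or 20 for interactions. CPM uses TMM library sizes, and RPKM also the exon length in the table. The thresholds for a call, 2-fold and an adjusted p of 0.05, are those of the study. DESeq2 1.42.0, its size factors, no filter on low counts, all 30 libraries in 1 fit, removal of each library's GC trend, a replicate block of culture numbers and each culture left out were alternatives. The lane as a covariate, values within lanes, DESeq2 with the block and the block with each culture left out were added after seeing the data. Scripts were tested on simulated data.

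The culture number was taken to pair libraries where same-numbered libraries deviated together. Over 13755 genes, 29 of 30 such pairs of libraries correlated by more than 0.1 (median 0.609, against -0.219 for other numbers), the exception being Cacnb3-/- culture p974s843 between ctrl and 24h (0.0746). The labels do not say what a number marks.

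The members and the gene lists were chosen with earlier results of these data known. All 8 members were named whatever their values, with at most 3 called genes of the smallest adjusted p per list and comparison, and the 3 genes with the most similar pattern per member. Counts of 18 to 185 per library for Dusp7 give the least precision.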

Additional observations from a re-analysis of the deposited data

Results flagged for a closer look

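Of 48 groups of 5 values (8 members in 6 groups), 2 held a library that stood apart from the other 4 by Dixon's test (critical value 0.71), where chance gives about 1 in 20 groups. In ctrl of WT, Dusp2 was at 5.002 CPM in culture p974s864, the lowest value, while the other 4 cultures lay between 15.5 and 18 CPM. In ctrl of Cacnb3-/-, Dusp4 was at 9.79 CPM in culture p974s843, the highest value, while the other 4 lay between 4.03 and 5.67 CPM.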

How the results depend on the processing

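Of 935 values of 61 fold changes of members under other settings, 842 kept their direction and their side of the threshold, 72 passed it in addition, 11 no longer did and 10 turned direction. Called members from ctrl to 0p5h of WT, 0 as reported, were 2 with DESeq2, with the replicate block, with the block and the GC trend removed, and with DESeq2 and the block, and 1 with all 30 libraries. In Cacnb3-/- the 1 called member became 2 with each of these 5 settings, with no filter and with the GC trend removed, and 1 to 2 with a culture left out. From 0p5h to 24h of WT, 0 to 2 were called with a culture left out. Between genotypes, 0 to 1 were called in ctrl and in 24h with a culture left out, 1 in 0p5h with DESeq2, and 1 in 24h with DESeq2, with no filter and with all 30 libraries. Members that passed with the replicate block numbered 0 to 1 between ctrl and 24h of WT with a culture left out, and 2 to 5 from ctrl to 0p5h of Cacnb3-/-. Between ctrl and 24h of Cacnb3-/-, where the numbers were not taken to pair the libraries, the block let 1 member pass as higher, Dusp2 (adjusted p = 0.0417 by edgeR, where 4.34% of genes passed as higher), 0 to 2 with a culture left out, and 3 with the GC trend removed as well, Dusp1, Dusp2 and Dusp5 (adjusted p = 0.0233, 0.0194 and 0.0233 by edgeR, 3% of genes). Of 43 other pathway genes, 3 passed as lower there with the block (4.2% of genes). The genotype difference in the change from ctrl to 24h, with the block, had an unadjusted p under 0.05 for 3 members, Dusp1, Dusp6 and Dusp16 (adjusted p = 0.234, 0.254 and 0.235 by edgeR), and 0 were called (0.118% of genes). The share of all genes at that unadjusted p is not given here. Among members, the block changed no other call than those given. In 28 of 30 libraries the closest deviation was that of the same number. Dusp6 from 0p5h to 24h of Cacnb3-/- was at -0.0332 with the lane as a covariate, -0.0297 to 0.282 with a culture left out and -0.066 to 0.347 with the block and a culture left out. Dusp5 between genotypes was at 0.0187 in ctrl, 0.0416 in 0p5h and 0.345 in 24h with the GC trend removed, and at -0.288 to 0.0223, -0.195 to 0.0914 and -0.234 to 0.00623 with a culture left out. The cause of these changes was not tested. Depth limits Dusp7 and Dusp10 most, at 18 to 185 and 29 to 355 counts per library, and the design limits the genotype comparisons to 5 cultures a side.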
